A study of Canis lupus familiaris with 6 samples.

Results

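Semaphorins, plexins and neuropilins are a family of guidance ligands and their receptors, and here they were followed in RasV12-transformed epithelial cells by the 38 array probes whose annotated gene name is a numbered SEMA gene, a PLXN gene, NRP1 or NRP2. These probes stand for 27 genes (17 semaphorins, 8 plexins and 2 neuropilins) out of 43603 probes in all. SEMA7A, the single semaphorin of class 7, was set against the rest of the family. RasV12 cells are MDCK cells, an epithelial line from dog kidney, in which tetracycline switches on GFP-tagged RasV12, and the parental MDCK cells served as the normal neighbours. Both groups received tetracycline for 24 h and were sorted for GFP, and total RNA was hybridised to 1-colour Agilent canine arrays. The alone group held 3 samples of RasV12 cells cultured by themselves, and the mixed group held 3 samples of RasV12 cells co-cultured with MDCK cells. The label of mixed replicates 1 and 3 gives 10 MDCK cells for each RasV12 cell and that of mixed replicate 2 gives 100, whereas the methods name one ratio of 10 to 1 for all. One protocol text in the labels speaks of cells that also carry a β-catenin mutant, which neither the titles nor the methods give for these samples. Nothing says whether the replicates were separate cultures, so the p-values measure the spread between these samples, which may be technical.

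Semaphorins share the extracellular sema domain and are secreted (class 3), cross the membrane (classes 4, 5 and 6) or are held at the surface by a lipid anchor (SEMA7A). Most signal through plexins, whose cytoplasmic part switches off small GTPases of the R-Ras and Rap kind and thereby loosens integrin adhesion. Secreted semaphorins usually need a neuropilin as the binding partner of a plexin A. SEMA7A is the exception in that it acts through the integrin β1 subunit as well as through PLXNC1. In kidney and other epithelia these proteins are known for roles in tubule branching, cell adhesion and motility.

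Of the 38 probes, 27 from 19 genes gave a signal well above background on all 6 arrays and were tested within a limma fit over 26535 probes. Past an adjusted p of 0.05 (two-sided, Benjamini-Hochberg over all probes tested, named here as called) were 7 of the 27, or 25.9%, against 11.2% of all probes tested. SEMA7A, SEMA4B, SEMA3F and PLXNB3 fell in mixed culture, and SEMA4D, SEMA6C and PLXNB1 rose at 1 probe each. The 4 that fell compare with 5.72% of all probes called lower, and the 3 that rose with 5.5% called higher. The groups did not overlap at 14 of the 27 probes, or 51.9%, where this was so for 37.2% of all probes tested. The median log2 difference over the 27 probes was 0.06, against -0.0037 over all tested, so the family did not shift one way as a whole. The median size of a difference was 0.29 in the family and 0.17 over all probes tested.

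The probes that carry these results are 60-base DNA oligonucleotides on the array, and a value refers to the stretch of transcript that its probe matches. Sequences are printed here for the called members whose probe was designed to an Ensembl transcript and has an open sense frame, from 5′ to 3′, in the sense of the transcript and with no part marked. The coordinates are those of the array annotation on canFam3. The annotation does not state the exon.
SEMA7A: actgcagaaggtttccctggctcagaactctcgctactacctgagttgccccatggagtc
SEMA4B: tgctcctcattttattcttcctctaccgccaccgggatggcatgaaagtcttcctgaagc
SEMA3F: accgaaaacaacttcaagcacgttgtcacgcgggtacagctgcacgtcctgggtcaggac
PLXNB1: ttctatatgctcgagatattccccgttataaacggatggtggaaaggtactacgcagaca
The SEMA7A probe (transcript ENSCAFT00000028433) lies at chr30:37533468-37533527 on the minus strand. The SEMA4B probe (ENSCAFT00000019183) lies at chr3:53182874-53182933 on the plus strand. The SEMA3F probe (ENSCAFT00000044023) lies at chr20:39136784-39136843 on the minus strand. The PLXNB1 probe (ENSCAFT00000020240) is placed at chr20:40681318-40681518 on the plus strand, a span of 201 bases for 60 bases of probe, so its match is split in the genome. Such split placements were given for 7 of the 38 probes.

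SEMA7A showed the widest difference of the family. Its processed intensity was 118, 256 and 233 on the alone arrays and 66.4, 71.4 and 53.1 on the mixed arrays. All 3 mixed values lay below all 3 alone values, and the lowest alone value was that of alone replicate 1. Between arrays of the same replicate number the log2 step from alone to mixed was -0.86, -1.74 and -2.01. On the log2 scale, relative to each array's 75th percentile, the level was -1.77 ± 0.54 alone and -3.30 ± 0.15 mixed (SD, n = 3). SEMA7A was therefore 2.90-fold lower in mixed culture, or -1.54 on the log2 scale (SE 0.26, adjusted p = 0.0227, limma). In such bulk RNA, fewer expressing cells and less RNA per cell cannot be told apart. Of the 26535 probes tested, 23 including SEMA7A fell at least as far. The other 26 tested probes of the family ranged from -0.84 to 0.99 with a median of 0.08. The array holds 1 probe for SEMA7A, so no second probe checks it. Leaving out alone replicate 1 widened its difference to -1.85 (adjusted p = 0.0035), whereas without any 1 of the other 5 arrays it was -1.60 to -1.38 and not called (adjusted p = 0.0516 to 0.0998). With normexp background correction the difference was -1.01, still called.

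Among the secreted class 3 semaphorins, which bind neuropilins, SEMA3F fell. SEMA3F, a ligand of NRP2 that repels and detaches cells, gave intensities of 502, 699 and 638 alone and 417, 385 and 338 mixed. Alone replicate 1 was again the lowest of its group and the log2 step within replicate numbers was -0.29, -0.76 and -0.79. The groups did not overlap, and the difference was -0.61 (SE 0.11, adjusted p = 0.0248, limma), a level 1.53-fold lower in mixed culture. SEMA3C, a secreted ligand that can act through either neuropilin, was higher at both of its probes without passing the threshold, by 0.22 (SE 0.10, adjusted p = 0.168) and 0.16 (SE 0.09, adjusted p = 0.273). SEMA3G, at 39.8 to 59.5 alone and 46.5 to 49.0 mixed, differed by 0.06 (SE 0.11, adjusted p = 0.744). SEMA3A, SEMA3B and SEMA3D, at 1.82 to 3.22 units, did not pass background on any of the 6 arrays. The SEMA3B and SEMA3F probes lie 75881 bases apart on chromosome 20, on the same strand, and of this pair SEMA3F alone was well above background.

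The transmembrane semaphorins of class 4 differed among themselves. SEMA4B gave intensities of 335, 501 and 505 alone and 264, 233 and 210 mixed. The log2 step was smallest for replicate 1, at -0.38, and widest for replicate 3, at -1.14. Its groups did not overlap, and it fell by 0.84 on the log2 scale (SE 0.15, adjusted p = 0.0251, limma), which is 1.79-fold. SEMA4D, a ligand of PLXNB1 that can be shed from the cell surface, rose at 1 of its 4 probes. That probe read 18.5, 16.5 and 16.1 alone and 25.4, 40.2 and 32.9 mixed, so that it was 1.99-fold higher in mixed culture, or 0.99 on the log2 scale (SE 0.18, adjusted p = 0.0245, limma). All 3 mixed values were above the alone values, but both groups were close to the lowest intensity that counted as well above background, 9.15 to 14.6 depending on the array, and with normexp the difference was 0.31 and not called (adjusted p = 0.0584).

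The other SEMA4D probes did not show this rise. A probe 488 bases upstream differed by 0.29 (SE 0.19, adjusted p = 0.356) and one 1027 bases upstream by -0.04 (SE 0.15, adjusted p = 0.866), both with overlapping groups. The remaining probe, designed to another transcript model and placed further 3′, was at 2.58 to 3.92 units and passed background on no array. The level of SEMA4D as a gene therefore cannot be read from these probes as one value.

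SEMA4A was higher at both probes, by 0.38 (SE 0.22, adjusted p = 0.273) and 0.20 (SE 0.09, adjusted p = 0.186). SEMA4C, a ligand of PLXNB2, spread widely over the alone arrays, at 202, 489 and 297, against 205, 250 and 217 in mixed culture, and its difference of -0.40 (SE 0.26, adjusted p = 0.341) did not exceed that spread. SEMA4G differed by -0.11 (SE 0.22, adjusted p = 0.775, limma). The probe that the annotation names SEMA4F passed background on 1 alone array and on no mixed array, and this reading holds for that probe only.

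In classes 5 and 6 the tested probes were all on the higher side. SEMA6C rose at its 3′ probe, with 80.4, 86.8 and 85.7 alone against 102.0, 107 and 92.4 mixed, a rise of 0.32 on the log2 scale (SE 0.07, adjusted p = 0.0364, limma) with no overlap. A second SEMA6C probe differed by 0.10 (SE 0.11, adjusted p = 0.559), and the third passed background on no array. The rise of the second probe is smaller than the 0.162 by which scaling to the spike-in controls lowers each log2 difference. SEMA6A, a ligand of PLXNA2 and PLXNA4, was higher by 0.32 (SE 0.11, adjusted p = 0.116), with groups that did not overlap. SEMA5A, which can bind PLXNB3, differed by 0.17 (SE 0.15, adjusted p = 0.491). Of the SEMA6D probes, one passed background on alone replicate 2 only and the other on no array.

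Among the plexins, the B subfamily held both calls, 1 in each direction. PLXNB1, the receptor of SEMA4D, read 635, 707 and 646 alone and 832, 784 and 738 mixed at its 3′ probe. It rose there by 0.31 (SE 0.07, adjusted p = 0.0386, limma) without overlap. A dimmer PLXNB1 probe, at 28.3 to 31.7 alone and 24.0 to 40.0 mixed, differed by 0.16 (SE 0.16, adjusted p = 0.539). PLXNB3 read 2002, 2310 and 2218 alone and 1692, 1791 and 1648 mixed. These groups did not overlap either, and PLXNB3 fell by 0.28 (SE 0.07, adjusted p = 0.0461, limma). PLXNB2 differed by 0.10 (SE 0.11, adjusted p = 0.546), with a sign that turned to -0.058 when arrays were scaled to the spike-in controls and to -0.0018 without mixed replicate 1. The differences of PLXNB1, PLXNB3 and SEMA6C were small, 1.21-fold to 1.25-fold, and with the replicate number as a block they were not called (adjusted p = 0.0564, 0.0631 and 0.0600), which left 4 of the 7 calls. With spike-in scaling the rise of PLXNB1 was 0.15 (adjusted p = 0.431) and that of SEMA6C 0.16 (adjusted p = 0.382), PLXNB3 was at -0.44 (adjusted p = 0.0856, limma), and none of these was called.

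Plexins of the A subfamily, which pair with neuropilins, were lower without passing the threshold on the values as reported. PLXNA2 differed by -0.41 (SE 0.11, adjusted p = 0.0607) at a probe that read 1959, 2314 and 2258 alone and 1833, 1480 and 1387 mixed. With normexp background correction this probe was called at -0.44 (adjusted p = 0.0196, limma). Its dimmer probe differed by -0.29 (SE 0.14, adjusted p = 0.217), and at both the groups did not overlap. PLXNA1 differed by -0.25 (SE 0.10, adjusted p = 0.135), from 12099, 15721 and 14362 alone to 12482, 11059 and 10206 mixed, with alone replicate 1 among the mixed values. PLXNA4, at 3.74 to 11.6 units, passed background on no array.

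Both neuropilins were also lower and short of the threshold. NRP1, a co-receptor for class 3 semaphorins and for VEGF, read 87.2, 116 and 119 alone and 86.0, 85.1 and 77.1 mixed, a difference of -0.30 (SE 0.11, adjusted p = 0.124). The 2 probes of NRP2 differed by -0.36 (SE 0.13, adjusted p = 0.114) and -0.27 (SE 0.17, adjusted p = 0.310), and at the second, brighter one the groups overlapped because alone replicate 1, at 1167, lay with the mixed arrays at 1158 to 1399. Without alone replicate 1 NRP1 was called at -0.40 (adjusted p = 0.0202) and the brighter NRP2 probe at -0.47 (adjusted p = 0.0117, limma). Without mixed replicate 1 the dimmer NRP2 probe was called at -0.50 (adjusted p = 0.0400) and the brighter PLXNA2 probe at -0.52 (adjusted p = 0.0322). Over the 14 alternatives with an adjusted p, NRP1 and each NRP2 probe were called in 1 only, and the brighter PLXNA2 probe in 2. Leaving out alone replicate 1 also raised the calls over all probes from 2978 to 7335.

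PLXNC1, the plexin that binds SEMA7A, was at 1.83 to 2.97 units and did not pass background on any of the 6 arrays. A second probe, annotated by an assembled transcript as part of plexin C1 and not counted among the members, was at 2.38 to 3.65 units and did not pass background either. The integrin side of SEMA7A was measured well. ITGB1, the integrin β1 subunit, fell at both of its probes, by 0.59 (SE 0.08, adjusted p = 0.0160) and 0.57 (SE 0.07, adjusted p = 0.0139, limma). The brighter one read 21884.5, 22460.5 and 22625.7 alone and 15067.3, 14604.6 and 12940.1 mixed. ITGA1, its partner in the collagen-binding α1β1 integrin, fell by 0.43 (SE 0.07, adjusted p = 0.0193) at 1 probe, while its other probe differed by -0.0046 (adjusted p = 0.983). SEMA7A and, at both of its probes, ITGB1 were thus measured at lower levels in mixed culture, ITGA1 at 1 probe of 2, and PLXNC1 was not detectable with either probe.

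ITGB1 and ITGA1 belong to 50 co-receptors, ligands of neuropilins and effectors chosen around semaphorin signalling, of which 43 have probes by that name and 33 could be tested. Of their 60 tested probes, 11 were called, 3 higher and 8 lower, or 18.3% against 11.2% of all probes tested, with a median log2 difference of -0.10. Among the probes that fell, VEGFA, a ligand that binds neuropilins, differed by -1.32 (SE 0.28, adjusted p = 0.0351, limma) at a dim probe and by -0.31 (adjusted p = 0.202) at a bright one. DPYSL2, a cytosolic mediator of the SEMA3A response, fell by 0.68 (adjusted p = 0.0183, limma) at the dimmest of its 3 probes. Its brightest probe differed by 0.05 (adjusted p = 0.711) and the remaining one by -0.19 (adjusted p = 0.143). GSK3B, a kinase that acts on DPYSL2, fell at 2 of 3 probes by 0.33 and 0.42 (adjusted p = 0.0348 and 0.0260, limma). These 2 probes overlap in position and so are not separate checks. The third differed by -0.16 (adjusted p = 0.370) with overlapping groups. RAP1B, a small GTPase on which the plexin GAP domain acts, fell by 0.42 (adjusted p = 0.0349). LIMK2, a kinase of the actin regulator cofilin, rose at both probes by 0.41 and 0.34 (adjusted p = 0.0347 and 0.0450), and FARP2, an exchange factor bound to plexin A, rose by 0.44 (adjusted p = 0.0411). With the replicate number as a block 6 of the 11 probes were called, all of them lower, and the calls of both LIMK2 probes (adjusted p = 0.0598 and 0.0608), FARP2 (0.0523), the dim VEGFA probe (0.0558) and the GSK3B probe at -0.33 (0.0531) were lost. MET and ERBB2, receptor kinases that associate with plexin B, were not called at any of their 4 probes, with differences of -0.26 to 0.30.

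Probes of one gene did not always tell the same story, and they could be set side by side for 7 genes of the family with several tested probes. In all 7 the tested probe nearest the 3′ end showed the largest difference in size, which held for 42.4% of the 4098 genes on the array with several tested probes. The calls of SEMA4D, SEMA6C and PLXNB1 all came from that 3′ probe. This pattern was noticed after the values were seen, and its cause was not tested.

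The arrays and samples set the following limits. The share of probes that passed background was 60.8% to 66.4% over the arrays, and the 75th percentile of intensity was 592 to 700. The alone arrays shared one slide and one scan time and the mixed arrays another, so slide, scan and culture cannot be told apart. Alone replicate 1 lay on the mixed side of the mean of alone replicates 2 and 3 at 7 of the 7 called probes, 19 of the 27 tested ones and 62.0% of all probes tested. All 9 kidney epithelial markers on the array, CDH1, EPCAM and PAX8 among them, passed background on all 6 arrays, with a median log2 difference of 0.04. PTPRC of leukocytes, CDH5 and TEK of endothelium and COL3A1 and PDGFRA of fibroblasts passed background on no array, and the summed intensity of the 7 fibroblast markers was 779 to 858 alone and 821 to 911 mixed. Ras-MAPK output genes were listed because MDCK cells left after the sort would dilute them. Of the 9 on the array, EPHA2 and FOSL1 were called lower, and the median difference was -0.49. The summed intensity of the 9 was 69617 to 77291 alone and 57547 to 66345 mixed, without overlap. Whether MDCK cells remained in the sorted mixed samples was not tested, nor was the part of the fibroblast and Ras-MAPK values in the results.

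How far each call held under other ways of handling the values differed between members. Over the 14 alternatives with an adjusted p, SEMA7A stayed between -1.85 and -1.01, SEMA4B between -0.999 and -0.69 and SEMA3F between -0.78 and -0.54, while SEMA4D ranged from 0.31 to 1.17. SEMA7A, SEMA3F and SEMA4D were called in 7 of them, SEMA4B in 8, PLXNB1 in 6, and PLXNB3 and SEMA6C in 5. None of the 7 changed sign. SEMA7A was -1.57 with quantile normalization and -1.70 with spike-in scaling, and SEMA4B was -0.69 with normexp and -0.999 with spike-in scaling, and all 4 of these values were called. SEMA3F was -0.54 with normexp and called, and -0.78 with spike-in scaling and not called (adjusted p = 0.0537). SEMA4D was 0.83 with spike-in scaling and called (adjusted p = 0.0484). The number of family probes called was 10 without alone replicate 1, where 7335 of all 27757 probes tested were called. It was 5 without mixed replicate 1, where 2009 of all 26942 were called. It was 0 without alone replicate 2, alone replicate 3, mixed replicate 2 or mixed replicate 3 by limma. In the same order, 24, 7, 9 and 12 of all probes tested were called. An unadjusted p under 0.05 was found for 12, 9, 8 and 11 of the 27. Over all probes tested it was found for 5902 of 26673, 5812 of 26585, 6112 of 26603 and 6086 of 26668. The methods' t-test after Benjamini-Hochberg adjustment called 3 of the 27 on the full set of arrays, namely PLXNB1, PLXNB3 and SEMA6C. Over all probes it called 826 of 26535. By this test SEMA7A (adjusted p = 0.0833), SEMA4B (0.0838), SEMA3F (0.0733) and SEMA4D (0.0853) were not called.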

How the data were processed

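GFP-sorted RasV12 cells from culture alone (3 arrays) and mixed culture (3 arrays) were compared. The authors deposited scanner output with an intensity per spot (Agilent Feature Extraction, detrended within the array by the scanner software, probes placed on canFam3) and a table of log2 values, each column of which equals the log2 processed signal minus the array's 75th percentile to within 0.0773. Its scale and centring are thereby known for 26529 probes. From the intensity, control spots and outlier spots were left out, spots of a probe averaged, and log2 values taken minus the 75th percentile over 43603 probes. Probes that passed Agilent's well-above-background flag on each array of either group were tested by limma 3.58.1 (R 4.3.3; lmFit, eBayes), with group as the only term. Tables used Python 3.11.15, pandas 2.3.3 and numpy 2.4.6. The fit was tested on simulated data. Gene names are those of the array annotation.

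Named singly were SEMA7A, every plexin and neuropilin probe, every called semaphorin probe and every semaphorin probe that was well above background on all 6 arrays with a log2 difference of at least 0.5 in size; other semaphorins are given by their values in brief. The members and lists were chosen with earlier results of these data known. Same-numbered arrays of the groups deviated together (correlations 0.162 to 0.349 over 26529 probes, all above 0.1). The numbers may therefore pair the samples, although alone replicate 2 correlated more with mixed replicate 3, at 0.238, than with mixed replicate 2, at 0.162. The main fit did not use this pairing, and the replicate block was run as an alternative to it. The number is also the array's position on its slide. Alternatives were the replicate block, quantile normalization, normexp (offset 50), spike-in scaling, leaving out each array, the methods' t-test, a 2-fold threshold, the deposited table in place of the intensity, and either no filter or one requiring all 6 arrays. The number of arrays limits the precision.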

Additional observations from a re-analysis of the deposited data

How the results depend on the processing

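All alternatives were planned, and a slide block was not run because each slide held 1 group. Over all probes 2978 were called. This count was 949 with spike-in scaling, 12 with no filter, 300 with a 2-fold threshold, 826 by the methods' t-test after Benjamini-Hochberg adjustment and 7315 unadjusted, and 7 to 7335 with single arrays left out. With no filter 7821 of the 43603 probes had an unadjusted p under 0.05 by limma. Of the family, 7 probes were called. The count was 3 with spike-in scaling, 4 with the replicate block, 3 by the adjusted t-test, 1 (SEMA7A) with a 2-fold threshold, 0 by limma with no filter, where 10 of the 38 had an unadjusted p under 0.05, and 0 to 10 with single arrays left out. Of the other genes of semaphorin signalling, 11 probes were called. The count was 4 with spike-in scaling, 6 with the replicate block, 4 by the adjusted t-test and 20 by the unadjusted one, 1 (VEGFA) with a 2-fold threshold, 0 by limma with no filter (19 of the 75 with an unadjusted p under 0.05), and 0 to 18 with single arrays left out.

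SEMA7A, at -1.54, was not called with no filter (-1.54, adjusted p = 0.0830) or by the adjusted t-test (-1.54, adjusted p = 0.0833), and ran from -1.85 to -1.38 with single arrays left out. Spike-in scaling moved the median of all probes to -0.16. Under it 24 of the 27 tested family probes kept their sign. PLXNB2 was 1 that did not, at -0.058, and ran from -0.0018, without mixed replicate 1, to 0.17 with single arrays left out. The replicate block changed no call of SEMA7A, SEMA4B, SEMA3F or SEMA4D. The 11 family probes that did not pass background on a whole group could not be compared.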

Other observations

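Other probes carry a description of the family but no gene symbol that names it, so they are outside the counts above. A probe described as plexin D1 was well above background on all 6 arrays, with intensities of 532, 572 and 540 alone and 470, 433 and 376 mixed. The groups did not overlap, and the difference was -0.30 (SE 0.08, adjusted p = 0.0650, limma), short of the threshold. The probe that the annotation names PLXND1 was at 2.91 to 9.40 units and well above background on none of the arrays, so the reading of PLXND1 depends on the probe.

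Probes described as semaphorin 5B and semaphorin 6B were well above background on all 6 arrays as well. They differed by 0.31 (SE 0.17, adjusted p = 0.267) and 0.12 (SE 0.10, adjusted p = 0.463), on the same side as the tested probes of SEMA5A, SEMA6A and SEMA6C. A probe described as similar to semaphorin M was well above background on all 6 arrays too. It read 220, 210 and 195 alone and 204, 170 and 159 mixed, and differed by -0.17 (SE 0.11, adjusted p = 0.365, limma).

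FYN, a kinase of the plexin A response, had 1 tested probe, which was well above background on all 3 mixed arrays and on alone replicate 1 alone among the others. It read 23.2, 8.27 and 7.16 alone and 28.9, 35.2 and 33.6 mixed. It entered the fit through the mixed group alone, where it is high, so no test is given.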
